A study of Mus musculus with 4 samples.

Results

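The genes described are 48 genes of cell death and of the p53 response, taken by name from a table of 52125 gene rows for the mouse stomach corpus, and 48 of the 48 had enough reads to be among the 18285 genes tested. They comprise 14 BCL2 family genes, 5 apoptotic caspases, 5 genes of the apoptosome and of the inhibitor of apoptosis proteins, 5 death receptor genes, 3 necroptosis genes, 7 inflammasome and gasdermin genes, p53 with its inhibitor Mdm2, and 7 further genes known as targets of p53. RNA came from the corpus, the acid- and enzyme-secreting body of the stomach, of wild-type C57BL/6 mice aged 6 to 8 weeks. In the HDT group, 2 mice had been given 1 intraperitoneal injection of HDT, at 5 mg per 20 g of body weight, 48 hr earlier. In the Vehicle group there were 2 mice at the same time point, and the labels call them vehicle in the sample titles and untreated in the protocol, so what they were given is not settled by the labels. The labels do not spell HDT out, but high-dose tamoxifen, used to injure the gastric epithelium, carries that abbreviation in this field. Each library was made from 1 mouse, and the series asks how the corpus responds to this injury.

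Apoptosis follows a mitochondrial route, in which BH3-only proteins relieve BAX and BAK of their BCL2-type inhibitors and cytochrome c then activates caspases through APAF1, or a route from death receptors through FADD and caspase 8. Necroptosis runs through the kinases RIPK1 and RIPK3 to the membrane-lysing protein MLKL, and pyroptosis through inflammasomes and caspases to gasdermin pores. The transcription factor p53 is held low by MDM2, is stabilised chiefly at the protein level, and raises genes of cell cycle arrest, repair and death, so transcript levels do not measure death or p53 activity by themselves.

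The libraries held 41536686 to 42674985 reads, and levels are given as CPM, the usual unit of reads scaled to a common library size, with the library totals rescaled by the TMM method so that the typical gene is level between groups. Corpus markers were present, with summed parietal cell markers of 1823 and 1465 CPM in HDT, against 11860 and 13000 CPM in Vehicle, and summed chief cell markers of 45440 and 32100 CPM in HDT, against 155600 and 188900 CPM in Vehicle; of these lists Ckmt2 and Lipf were at 0 in every library. Summed surface mucous cell markers were at 65740 and 80610 CPM in HDT, against 123300 and 120300 CPM in Vehicle, with 6 of 6 lower. Summed macrophage and monocyte markers were at 452.8 and 374.0 CPM in HDT, against 203.3 and 214.6 CPM in Vehicle, with 8 of 11 higher, 1 lower and none at 0. Fibroblast markers were at 1881 and 2116 CPM in HDT, against 1026 and 1010 CPM in Vehicle, with 5 of 6 higher. Markers of mitotic cells were at 638.7 and 536.5 CPM in HDT, against 156.4 and 175.4 CPM in Vehicle, with 8 of 8 higher. T and NK cell markers were at 9.41 and 7.53 CPM in HDT, against 4.94 and 4.65 CPM in Vehicle, of which Cd4 made up 8.69 and 6.60 CPM in HDT and 3.35 and 3.34 CPM in Vehicle; of the 2 tested, Cd4 was higher and Trac was lower. Neutrophil markers summed to 3.73 and 1.88 CPM in HDT, against 3.58 and 2.67 CPM in Vehicle, with 1 of the 3 tested, S100a9, lower. Their part in the results below was not tested, and in bulk tissue a change in the share of a cell type and a change in RNA per cell cannot be told apart.

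In HDT, 17 of the 48 genes rose and 8 fell (limma, Benjamini-Hochberg adjusted p under 0.05 over all genes tested), and 23 were not called. That is 35.4% higher and 16.7% lower, where 18.4% of all tested genes were higher and 19.3% were lower, 37.7% in all. The same shares of all tested genes are the background for the counts of each smaller group below. The members were chosen with results of these data known, so the difference from the background is a description. Their median log2 fold change was 0.21, against −0.001 over all tested genes, and 1 called rise and no called fall reached 2-fold, which 4.07% and 4.5% of all tested genes did. Both HDT libraries lay above both Vehicle libraries for 25 members, where 35.3% of all tested genes did so, and below them for 14, where 35.5% did. Each adjusted p sets a change against the spread between 2 mice per group, pooled with the trend over genes. Without each library in turn, the members called higher numbered 15 without HDT replicate 1, 10 without HDT replicate 2, 12 without Vehicle replicate 1 and 9 without Vehicle replicate 2. The members called lower numbered 5, 8, 8 and 6 in the same order. Of the 17 higher and 8 lower members, 8 and 5 were called in each of these 4 fits. When the values were used at the deposited scaling, which sets the 4 column totals nearly equal, the median log2 fold change of all genes was 0.53, and 41 members were higher and 1, Bmf, was lower. Changes are therefore given relative to the typical gene.

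**Figure D1:**
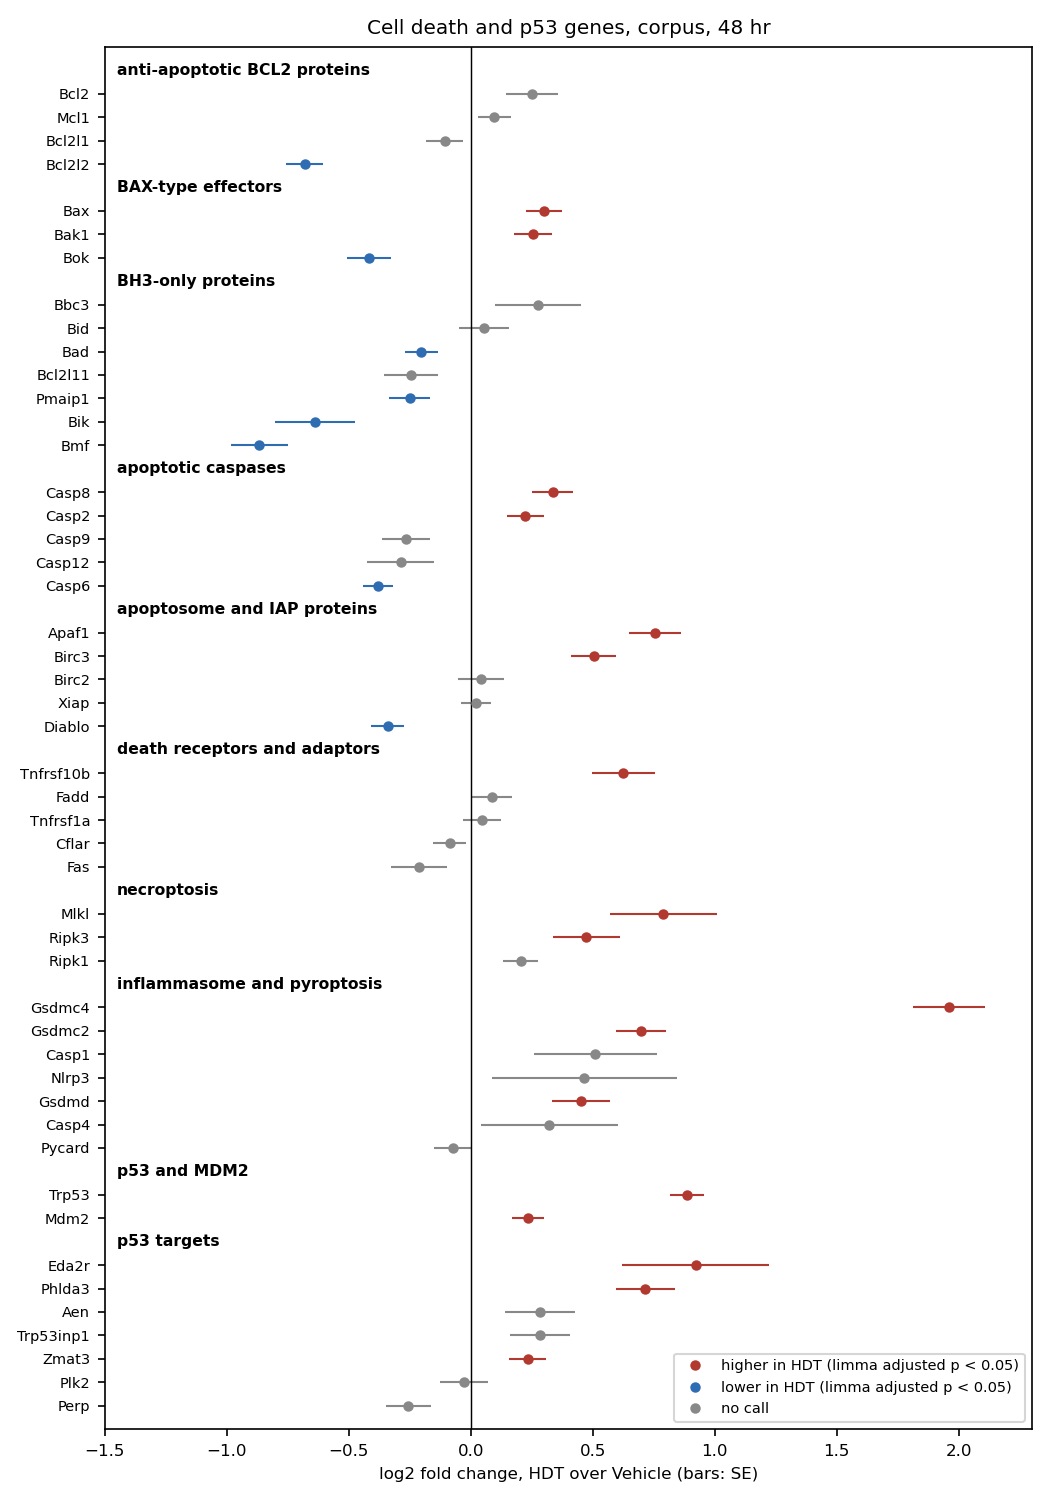
Log2 fold change of HDT over Vehicle for each of the 48 genes, grouped by role, with SE bars from the limma fit over 2 HDT and 2 Vehicle libraries; colour marks the 17 genes higher, the 8 lower and the 23 without a call. Gsdmc4 lies at 1.96, Trp53 at 0.89 and Bmf at −0.87.

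The p53 transcript itself was higher after HDT. Trp53 (chromosome 11, 69580359 to 69591873, plus strand, GRCm38) was at 47.5 and 44.2 CPM in HDT, against 24.7 and 24.9 CPM in Vehicle. The Vehicle libraries were nearly equal and both HDT libraries were well above them, with a log2 fold change of 0.89 (SE 0.07, limma adjusted p = 5.67e-05). Mdm2, the ubiquitin ligase that degrades p53 and is itself a p53 target, was at 35.0 and 34.8 CPM in HDT, against 28.9 and 30.4 CPM in Vehicle. The groups did not overlap and the log2 fold change was 0.24 (SE 0.07, limma adjusted p = 0.0265). This call was lost without any 1 of the 4 libraries, with limma adjusted p of 0.0527 to 0.174 and log2 fold changes of 0.19 to 0.27. Mdm4, a related inhibitor of p53, was at 23.2 and 23.0 CPM in HDT, against 16.7 and 17.1 CPM in Vehicle (log2 fold change 0.45, SE 0.07, limma adjusted p = 0.00213). Of the other p53 family genes, Trp63 and Trp73 had too few reads to be tested.

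Of the 7 genes grouped as p53 targets, 3 rose, none fell and 4 were not called. Over all tested genes, 18.4% rose and 19.3% fell. Some other members known as p53 targets are described with their own groups. Among them Mdm2, Bax and Tnfrsf10b rose, Pmaip1 fell, and Bbc3 and Fas were not called. This is not a full list of the p53 targets among the members. Phlda3, which encodes a repressor of AKT signalling, was at 7.66 and 8.56 CPM in HDT, against 5.08 and 4.76 CPM in Vehicle, a log2 fold change of 0.72 (SE 0.12, limma adjusted p = 0.00267). The HDT libraries were both above the Vehicle libraries, and the call held without each library. Zmat3, which encodes an RNA-binding zinc finger protein, was at 20.2 and 19.5 CPM in HDT, against 16.8 and 17.0 CPM in Vehicle, a log2 fold change of 0.23 (limma adjusted p = 0.0442). The receptor gene Eda2r had 0.82 and 0.69 CPM in HDT, against 0.40 and 0.38 CPM in Vehicle, a log2 fold change of 0.92 (SE 0.30, limma adjusted p = 0.0437). Both calls were lost in each fit without 1 library, with limma adjusted p of 0.0667 to 0.181 for Zmat3 and of 0.0895 to 0.216 for Eda2r. For Eda2r the reads behind these levels were 42 and 35 in HDT, against 14 and 13 in Vehicle.

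The other 4 targets had no call. Trp53inp1, a stress-induced partner of p53, was at 22.1 and 17.9 CPM in HDT, against 15.1 and 17.7 CPM in Vehicle (limma adjusted p = 0.11). Its lower HDT library and higher Vehicle library nearly met, and dropping HDT replicate 2 (0.45 on the log2 scale, limma adjusted p = 0.0296) or Vehicle replicate 2 (0.39, 0.0404) made it a higher call. The exonuclease gene Aen was at 10.5 and 8.16 CPM in HDT, against 8.04 and 7.20 CPM in Vehicle (limma adjusted p = 0.156), and dropping HDT replicate 2 made it a higher call (0.48 on the log2 scale, limma adjusted p = 0.0391). Perp, whose product is a membrane protein of desmosomes, had the highest level of the 48 genes, 170 and 199 CPM in HDT, against 232 and 207 CPM in Vehicle, a log2 fold change of −0.26 (limma adjusted p = 0.0646). The HDT libraries were both below the Vehicle libraries, and dropping HDT replicate 2 (−0.35 on the log2 scale, limma adjusted p = 0.0207) or Vehicle replicate 2 (−0.34, 0.0421) made it a lower call. Squamous cells also make desmosomes, and their keratin gene Krt5 was at 0.54 and 0.48 CPM in HDT, against 0.17 and 0.38 CPM in Vehicle. The 11 squamous markers summed to 108.3 and 133.2 CPM in HDT, against 77.8 and 66.6 CPM in Vehicle, of which Sprr1a, 1 of the 11 and the one called higher, made up 105 and 130 CPM in HDT and 75.5 and 64.5 CPM in Vehicle. The kinase gene Plk2 was at 11.3 and 10.2 CPM in HDT, against 11.2 and 10.8 CPM in Vehicle, and the groups overlapped (limma adjusted p = 0.85).

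**Figure D2:**
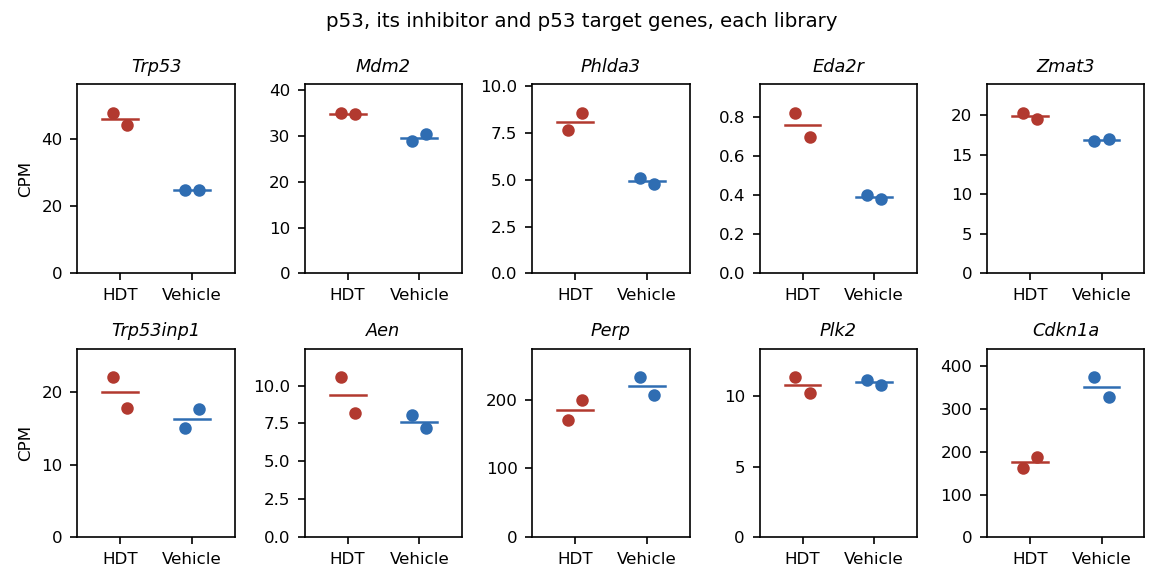
CPM of Trp53, Mdm2, 7 p53 targets and Cdkn1a in each of the 2 HDT and 2 Vehicle libraries, with a line at each group mean and every axis from 0. Trp53 averages 45.9 CPM in HDT and 24.8 CPM in Vehicle, while Cdkn1a is lower in both HDT libraries than in both Vehicle libraries.

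A list of 17 further p53 targets gave 3 higher, 4 lower and 10 without a call, with a median log2 fold change of −0.08. These shares of 17.6% higher and 23.5% lower were near the 18.4% and 19.3% of all tested genes. Cdkn1a, which encodes the cell cycle inhibitor p21 and is the textbook p53 target, was at 162 and 188 CPM in HDT, against 373 and 327 CPM in Vehicle. Both HDT libraries were far below both Vehicle libraries, and the log2 fold change of −0.999 (SE 0.09, limma adjusted p = 0.00017) was −0.89 to −1.10 without single libraries. Psrc1, whose product acts on the mitotic spindle, was at 4.53 and 3.67 CPM in HDT, against 0.88 and 0.64 CPM in Vehicle, a log2 fold change of 2.41 (SE 0.23, limma adjusted p = 0.000149). Mitotic cell markers were higher in the same libraries, by the sums given above.

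**Figure D3:**
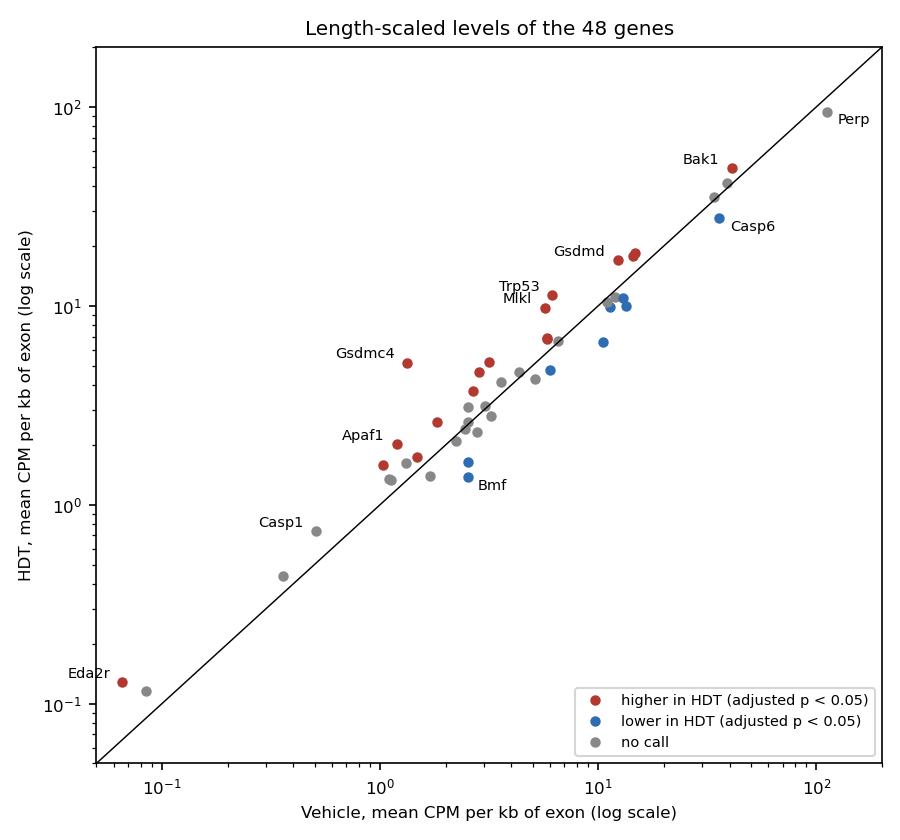
Mean CPM per kb of merged exon for each of the 48 genes in HDT (vertical, log scale) against Vehicle (horizontal, log scale), with the line of equal levels. In HDT, levels run from 0.116 for Nlrp3 to 94.3 for Perp, and Gsdmc4 lies farthest from the line.

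Promoters were read for p53 sites, since p53 and many of its targets are among the genes measured. RefSeq promoter windows (GRCm38.p6, 250 bases before and 50 after a transcription start) were found for 39 of the 48 members, and not for Bik, Pmaip1, Tnfrsf10b, Gsdmd, Gsdmc2, Gsdmc4, Zmat3, Perp and Trp53inp1. They were searched for the p53 consensus, a pair of adjoining repeats of 10 bases, on both strands, with at most 3 mismatches and none at the fixed C and G of either repeat. A match was found in 453 of all 32851 windows (1.38%) and in 4 of the 54 windows of members. These 4 windows belong to 3 members, Trp53, Bbc3 and Aen. Among the further p53 targets, windows of Cdkn1a, Ccng1, Sesn1 and Tigar held one. The 5 sites shown, of a gene that was higher, a gene that was lower and 3 without a call, were chosen after their levels were seen and have the core of each repeat in capitals.
Trp53: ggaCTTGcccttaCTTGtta
Bbc3: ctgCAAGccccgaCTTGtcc
Aen: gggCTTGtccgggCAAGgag
Cdkn1a: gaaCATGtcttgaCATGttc
Ccng1: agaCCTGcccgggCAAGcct
The sites of Cdkn1a (chr17:29090928-29090947, plus strand) and Ccng1 (chr11:40755462-40755481, minus strand) had 1 mismatch each. Those of Trp53 (chr11:69580284-69580303, plus strand), Bbc3 (chr7:16309486-16309505, plus strand) and Aen (chr7:78895937-78895956, plus strand) had 3 each. Ccng1, a cyclin family gene, was at 183 and 138 CPM in HDT, against 160 and 167 CPM in Vehicle, and the groups overlapped (limma adjusted p = 0.829). A match to the p53 consensus thus stood near a transcription start of genes that were higher, lower and without a call.

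The 250 bases before a transcription start are printed for Trp53, the higher gene, and for Bbc3, the BH3-only target, with the matched p53 site in capitals. The start used for Bbc3 lies inside the gene, whose first annotated base is at 16308393. The Trp53 and Bbc3 windows also held an NF-kB match, which is not marked.
Trp53, chr11:69580109-69580358, plus strand: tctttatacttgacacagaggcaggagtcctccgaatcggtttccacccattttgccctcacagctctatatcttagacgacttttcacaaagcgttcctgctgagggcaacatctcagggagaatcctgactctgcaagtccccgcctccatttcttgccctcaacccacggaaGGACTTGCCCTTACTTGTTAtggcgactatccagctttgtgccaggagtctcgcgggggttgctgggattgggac
Bbc3, chr7:16309333-16309582, plus strand: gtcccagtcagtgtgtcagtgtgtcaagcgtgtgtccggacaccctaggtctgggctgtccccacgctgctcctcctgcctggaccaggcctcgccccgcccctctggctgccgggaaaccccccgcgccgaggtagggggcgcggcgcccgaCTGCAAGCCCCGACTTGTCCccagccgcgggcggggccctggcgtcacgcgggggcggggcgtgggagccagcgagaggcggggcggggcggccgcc

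The pore-forming effectors of the mitochondrial route moved in both directions. Bax, which permeabilises the outer membrane, was at 27.9 and 28.2 CPM in HDT, against 23.8 and 21.9 CPM in Vehicle, a log2 fold change of 0.30 (SE 0.07, limma adjusted p = 0.015). Bak1, its constitutively mitochondrial partner, was at 111 and 126 CPM in HDT, against 102 and 95.7 CPM in Vehicle, a log2 fold change of 0.26 (SE 0.08, limma adjusted p = 0.034). The HDT libraries were above the Vehicle libraries for both genes. Bok, the related effector, was lower, at 18.4 and 18.5 CPM in HDT, against 26.6 and 22.8 CPM in Vehicle. Its log2 fold change of −0.42 (SE 0.09, limma adjusted p = 0.00827) became 0.11 without a call under the deposited scaling. Dropping HDT replicate 2 (limma adjusted p = 0.0505) or Vehicle replicate 2 (0.101) ended the call of Bax. That of Bak1 ended on dropping HDT replicate 2 (limma adjusted p = 0.102), Vehicle replicate 1 (0.0576) or Vehicle replicate 2 (0.187). Exons of Bax overlap those of Gm45808 on the same strand, which was also called higher, and exons of Bak1 overlap Ggnbp1 on the opposite strand.

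Of the 4 inhibitors of these effectors, 1 was lower and 3 had no call, where 19.3% of all tested genes were lower. Bcl2l2, which encodes BCL-W, was at 28.4 and 30.3 CPM in HDT, against 44.9 and 49.2 CPM in Vehicle, a log2 fold change of −0.68 (SE 0.07, limma adjusted p = 0.000301). The call held without each library, and at the deposited scaling the value was −0.15 without a call. The exons of Bcl2l2 overlap Gm20521 on the same strand, which was called higher, at 45.7 and 43.6 CPM in HDT, against 35.1 and 37.0 CPM in Vehicle, and the part of reads shared between both genes in this fall was not tested. Mcl1, a short-lived inhibitor, was the most abundant of the 4 per length, at 41.5 CPM per kb of exon in HDT and 38.8 in Vehicle. Mcl1 libraries were at 137 and 147 CPM in HDT, against 130 and 135 CPM in Vehicle (limma adjusted p = 0.284). Bcl2l1, which encodes BCL-XL, was at 48.1 and 53.7 CPM in HDT, against 56.4 and 53.1 CPM in Vehicle, with overlapping groups (limma adjusted p = 0.301). Bcl2 was at 12.5 and 11.9 CPM in HDT, against 9.54 and 11.0 CPM in Vehicle (limma adjusted p = 0.0997).

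Further inhibitors of the BCL2A1 group were low but higher in HDT for 2 of the 3 tested. Bcl2a1b was at 2.47 and 2.18 CPM in HDT, against 0.97 and 0.99 CPM in Vehicle, a log2 fold change of 1.23 (limma adjusted p = 0.00215). Bcl2a1d was at 0.68 and 0.89 CPM in HDT, against 0.28 and 0.41 CPM in Vehicle, a log2 fold change of 1.15 (limma adjusted p = 0.0302), a call that dropping HDT replicate 1 (limma adjusted p = 0.0705), HDT replicate 2 (0.181) or Vehicle replicate 1 (0.107) ended. The transcripts of both genes are 99.1% identical over 817 aligned bases, so reads could be exchanged between them. These genes are known from leukocytes, and 8 of the 11 macrophage and monocyte markers were higher in the same libraries, with 1 lower. Bcl2l10 had too few reads to be tested.

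Of the 7 BH3-only genes, which start the mitochondrial route, none rose, 4 fell and 3 were not called. The shares of all tested genes were 18.4% higher and 19.3% lower. Bmf, which senses loss of attachment, was at 7.04 and 7.39 CPM in HDT, against 12.0 and 14.5 CPM in Vehicle, a log2 fold change of −0.87 (SE 0.12, limma adjusted p = 0.000873). Both HDT libraries were well below both Vehicle libraries, and Bmf is the member that stayed called lower at the deposited scaling (−0.34). Bik was at 2.37 and 2.81 CPM in HDT, against 3.83 and 4.24 CPM in Vehicle, a log2 fold change of −0.64 (limma adjusted p = 0.017), and the call ended on dropping HDT replicate 1 (limma adjusted p = 0.0771) or Vehicle replicate 2 (0.0707). Bad, which growth factor signalling inactivates, was at 25.1 and 25.4 CPM in HDT, against 29.2 and 28.9 CPM in Vehicle, with a log2 fold change of −0.20 (limma adjusted p = 0.0466), which became 0.33 under the deposited scaling (limma adjusted p = 0.00314).

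The call of Bad was lost without each of the 4 libraries (limma adjusted p 0.118 to 0.18). Its exons overlap those of Gpr137 on the opposite strand, which was also called lower. Pmaip1, the p53 target that encodes NOXA, was at 27.7 and 32.0 CPM in HDT, against 35.4 and 35.6 CPM in Vehicle. Its log2 fold change was −0.25 (limma adjusted p = 0.0455). Under the deposited scaling Pmaip1 was called higher, at 0.28 (limma adjusted p = 0.0111). Its call ended on dropping HDT replicate 1 (limma adjusted p = 0.215, log2 fold change −0.14), Vehicle replicate 1 (0.0999) or Vehicle replicate 2 (0.0999). Bbc3, which encodes PUMA and holds the site printed above, was at 3.15 and 2.56 CPM in HDT, against 2.3 and 2.38 CPM in Vehicle (log2 fold change 0.28, SE 0.18, limma adjusted p = 0.261). Bcl2l11, which encodes BIM, was at 18.5 and 18.9 CPM in HDT, against 19.8 and 24.8 CPM in Vehicle (limma adjusted p = 0.118), and was called lower without Vehicle replicate 1 (log2 fold change −0.41, limma adjusted p = 0.0101). Bid, the BH3-only substrate of caspase 8, was at 10.9 and 11.5 CPM in HDT, against 10.2 and 11.4 CPM in Vehicle, and the groups overlapped (limma adjusted p = 0.709).

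**Figure D4:**
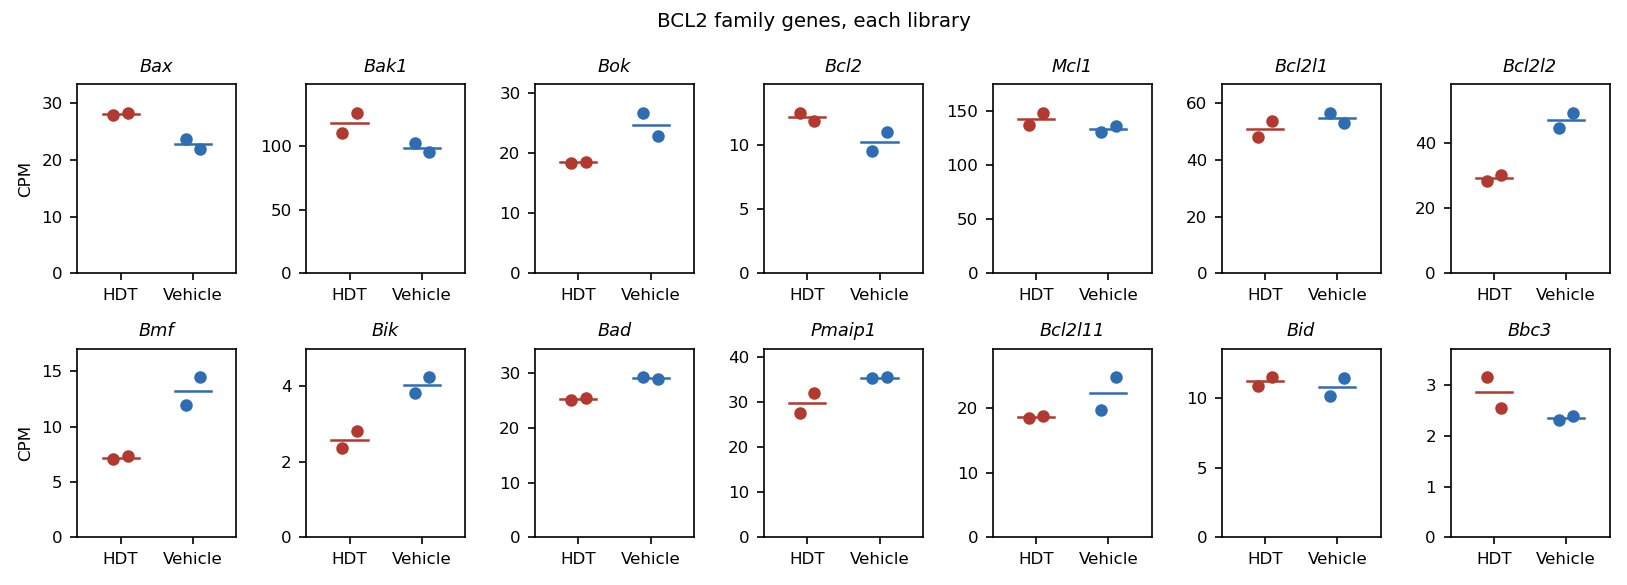
CPM of the 14 BCL2 family genes in each of the 2 HDT and 2 Vehicle libraries, with a line at each group mean and every axis from 0. Bax and Bak1 are higher in HDT, and Bok, Bcl2l2, Bmf, Bik, Bad and Pmaip1 are lower.

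Of 3 other BH3-containing genes, the 2 that were tested fell. Bnip3, a mitophagy receptor induced by low oxygen, was at 32.9 and 33.9 CPM in HDT, against 93.9 and 84.1 CPM in Vehicle, a log2 fold change of −1.41 (SE 0.07, limma adjusted p = 8.32e-06). Bnip3l, its homologue, was at 66.4 and 62.5 CPM in HDT, against 82.3 and 84.0 CPM in Vehicle, with a log2 fold change of −0.37 (limma adjusted p = 0.00261), which became 0.16 without a call under the deposited scaling. Hrk had too few reads to be tested.

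The components downstream of mitochondria were divided as well. Apaf1, the scaffold of the apoptosome, was at 18.1 and 18.4 CPM in HDT, against 9.80 and 11.9 CPM in Vehicle, a log2 fold change of 0.76 (SE 0.11, limma adjusted p = 0.00111). Both HDT libraries were clearly above both Vehicle libraries, and the call held without each library. Cycs, the cytochrome c that binds APAF1 and also serves respiration, was lower, at 85.6 and 92.9 CPM in HDT, against 158 and 153 CPM in Vehicle (log2 fold change −0.80, SE 0.07, limma adjusted p = 7.13e-05). Diablo, which encodes the IAP antagonist SMAC, was at 28.9 and 29.5 CPM in HDT, against 38.0 and 36.0 CPM in Vehicle. Its log2 fold change was −0.34 (SE 0.07, limma adjusted p = 0.0054). Under the deposited scaling Diablo was called higher, at 0.19 (limma adjusted p = 0.0478).

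Among the IAP genes, which restrain caspases or ubiquitinate RIPK1, Birc3 was at 12.7 and 13.4 CPM in HDT, against 8.98 and 9.38 CPM in Vehicle, a log2 fold change of 0.50 (SE 0.09, limma adjusted p = 0.00424). The call held without each library. Its neighbour Birc2 was at 11.5 and 12.4 CPM in HDT, against 11.6 and 11.6 CPM in Vehicle (limma adjusted p = 0.755). Xiap was at 62.5 and 63.6 CPM in HDT, against 60.6 and 63.7 CPM in Vehicle (limma adjusted p = 0.815), and for both genes the groups overlapped. Birc6, a giant IAP with ubiquitin-conjugating activity, was at 75.2 and 70.9 CPM in HDT, against 53.6 and 58.4 CPM in Vehicle (log2 fold change 0.38, limma adjusted p = 0.0037). In all, 6 other genes of this list were set down; 5 were tested, of which 1 was higher and 3 were lower, and Septin4 is not analysed here.

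Of the 5 apoptotic caspases, 2 rose, 1 fell and 2 were not called, where 18.4% of all tested genes rose and 19.3% fell. Casp8, the initiator at death receptors, was at 49.3 and 58.0 CPM in HDT, against 42.4 and 42.4 CPM in Vehicle, a log2 fold change of 0.34 (SE 0.08, limma adjusted p = 0.0162). Both HDT libraries exceeded the near-equal Vehicle libraries. Casp2 was at 45.5 and 50.2 CPM in HDT, against 39.4 and 42.5 CPM in Vehicle, a log2 fold change of 0.22 (limma adjusted p = 0.0489), which was lost without HDT replicate 2 (limma adjusted p = 0.152), Vehicle replicate 1 (0.264) or Vehicle replicate 2 (0.054). Casp6, an effector caspase, was lower, at 149 and 160 CPM in HDT, against 202 and 199 CPM in Vehicle, with a log2 fold change of −0.38 (SE 0.06, limma adjusted p = 0.00238), which became 0.15 without a call under the deposited scaling.

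Casp9, the caspase that APAF1 activates, was at 22.3 and 22.1 CPM in HDT, against 24.1 and 29.4 CPM in Vehicle (limma adjusted p = 0.0703), and it was called lower without Vehicle replicate 1 (log2 fold change −0.41, limma adjusted p = 0.0079). Its exons overlap the pancreatic-type protease genes Cela2a and Ctrc on the opposite strand. Cela2a was at 1.89 and 2.001 CPM in HDT, against 3.21 and 33.5 CPM in Vehicle, so the Vehicle library with the higher Casp9 also had the higher Cela2a, and its part in the Casp9 value was not tested. Casp12, known in mice from the endoplasmic reticulum, was at 4.84 and 5.86 CPM in HDT, against 6.73 and 6.30 CPM in Vehicle (limma adjusted p = 0.138).

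At the death receptors, 1 of 5 members was higher and 4 had no call, where 18.4% of all tested genes were higher. Tnfrsf10b, the mouse TRAIL receptor and a p53 target, was at 9.41 and 7.89 CPM in HDT, against 5.37 and 5.81 CPM in Vehicle, a log2 fold change of 0.62 (SE 0.13, limma adjusted p = 0.00681). Both HDT libraries were above both Vehicle libraries, and the call held without each library. Fas, another receptor and p53 target, was at 5.74 and 5.75 CPM in HDT, against 6.67 and 6.62 CPM in Vehicle, a log2 fold change of −0.21 (limma adjusted p = 0.186). Replicates of Fas lay close together and the groups did not overlap, yet the change did not pass.

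The shared adaptor Fadd was at 18.5 and 17.6 CPM in HDT, against 17.6 and 16.4 CPM in Vehicle (limma adjusted p = 0.444). Tnfrsf1a, the main TNF receptor, was at 85.0 and 97.7 CPM in HDT, against 89.5 and 87.2 CPM in Vehicle (limma adjusted p = 0.679). Cflar, which encodes the caspase 8 inhibitor FLIP, was at 27.0 and 26.0 CPM in HDT, against 27.8 and 28.5 CPM in Vehicle (limma adjusted p = 0.356). Groups overlapped for Fadd and Tnfrsf1a, and none of the 5 tested ligands, adaptors and receptors of the further list was called. The ligand genes Fasl and Tnf had too few reads to be tested, with at most 0.12 and 0.16 CPM in any library.

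The necroptosis genes had 2 of 3 members higher, where 18.4% of all tested genes were. The spread between mice was widest for Mlkl and small for Ripk1 (SE 0.07). Mlkl, the executioner, was at 19.1 and 26.0 CPM in HDT, against 15.2 and 11.0 CPM in Vehicle, a log2 fold change of 0.79 (SE 0.22, limma adjusted p = 0.0458). Ripk3, which phosphorylates MLKL, was at 7.56 and 9.49 CPM in HDT, against 6.31 and 5.89 CPM in Vehicle, a log2 fold change of 0.47 (SE 0.14, limma adjusted p = 0.0284). For both genes HDT replicate 2 was the highest library and Vehicle replicate 2 the lowest. The call of Mlkl ended on dropping HDT replicate 2 (limma adjusted p = 0.11) or Vehicle replicate 2 (0.101), and so did that of Ripk3 (0.136 and 0.0764).

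Ripk1, the kinase upstream of both, was at 33.2 and 35.8 CPM in HDT, against 29.3 and 30.5 CPM in Vehicle, a log2 fold change of 0.21 just short of the threshold (limma adjusted p = 0.055), which it passed without HDT replicate 1 (0.27, 0.0437). The 4 other genes of this list gave 2 lower and 2 without a call. Cyld, a deubiquitinase acting on RIPK1, was at 42.0 and 44.7 CPM in HDT, against 67.6 and 76.0 CPM in Vehicle (log2 fold change −0.73, SE 0.08, limma adjusted p = 0.000239). Tnfaip3, which encodes the ubiquitin-editing enzyme A20, was at 10.4 and 10.1 CPM in HDT, against 13.6 and 12.0 CPM in Vehicle, with a log2 fold change of −0.33 (limma adjusted p = 0.0371), which became 0.21 without a call under the deposited scaling. Its call was lost without HDT replicate 1 (limma adjusted p = 0.0905), HDT replicate 2 (0.144) or Vehicle replicate 1 (0.228).

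The largest change among the 48 genes was in the gasdermins, whose products form membrane pores after cleavage. Gsdmc4 (chromosome 15, 63891264 to 63912297, minus strand, GRCm38) was at 10.1 and 11.6 CPM in HDT, against 3.04 and 2.50 CPM in Vehicle. Every HDT value was over 3 times every Vehicle value, the fold change was 3.89, and the log2 fold change of 1.96 (SE 0.15, limma adjusted p = 4.87e-05) was 1.82 to 2.10 without single libraries. Gsdmc2 was at 10.9 and 10.5 CPM in HDT, against 6.73 and 6.42 CPM in Vehicle, a log2 fold change of 0.70 (SE 0.10, limma adjusted p = 0.0013). Gsdmc3, from the further list, was at 2.43 and 2.34 CPM in HDT, against 1.11 and 1.10 CPM in Vehicle, a log2 fold change of 1.09 (SE 0.19, limma adjusted p = 0.00298). For these 3 genes the groups were far apart relative to the spread between mice, and each call held without each library.

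The 3 gasdermin C genes lie side by side on chromosome 15. Their transcripts are 97.3% identical between Gsdmc2 and Gsdmc3, 94.0% between Gsdmc2 and Gsdmc4 and 93.8% between Gsdmc3 and Gsdmc4 over the aligned bases, so the division of reads among them is uncertain. The founding gene Gsdmc had too few reads to be tested, with at most 0.06 CPM in any library. Gsdmd, the main pore former of pyroptosis, was at 35.8 and 44.4 CPM in HDT, against 31.3 and 27.2 CPM in Vehicle, a log2 fold change of 0.45 (SE 0.12, limma adjusted p = 0.0251). Dropping HDT replicate 2 (limma adjusted p = 0.0727) or Vehicle replicate 2 (0.0751) ended its call, at log2 fold changes of 0.31 and 0.34. Per kb of exon Gsdmd was at 16.9 CPM in HDT and 12.3 CPM in Vehicle, and Gsdmc4 at 5.18 CPM in HDT and 1.33 CPM in Vehicle.

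The inflammasome members were without a call, and 3 of them were scarce. Pycard, which encodes the adaptor ASC, was at 37.4 and 41.9 CPM in HDT, against 42.5 and 40.9 CPM in Vehicle, with overlapping groups (limma adjusted p = 0.475). Casp1, which cleaves gasdermin D, was at 0.97 and 1.23 CPM in HDT, against 0.74 and 0.78 CPM in Vehicle (log2 fold change 0.51, SE 0.25, limma adjusted p = 0.152). Casp4, the mouse sensor of cytosolic lipopolysaccharide also called caspase 11, was at 1.73 and 1.51 CPM in HDT, against 1.68 and 0.99 CPM in Vehicle (limma adjusted p = 0.403). The sensor gene Nlrp3 was at 0.51 and 0.44 CPM in HDT, against 0.43 and 0.26 CPM in Vehicle (limma adjusted p = 0.372), from 26 and 22 reads in HDT and 15 and 9 reads in Vehicle. At this depth the scarce genes were measured with little precision, and their SE of 0.25 to 0.38 on the log2 scale is several times that of Trp53.

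Of the 13 other genes of this list, 11 were tested, of which 3 rose, 2 fell and 6 were not called. Nlrp1b, another inflammasome sensor, was at 0.76 and 0.46 CPM in HDT, against 0.26 and 0.26 CPM in Vehicle, a log2 fold change of 1.13 (limma adjusted p = 0.0498) that was not called without any 1 of the 4 libraries (limma adjusted p 0.0636 to 0.337). Gsdmc and Nlrp6 had too few reads to be tested. Macrophages and monocytes are known for inflammasome genes. Of their 11 markers, 8 were higher in HDT, and Adgre1 and Ccr2 were not called. The monocyte marker Ly6c2 was lower (log2 fold change −1.56, limma adjusted p = 0.00263). Of the neutrophil markers, S100a9 was lower, Csf3r and Retnlg were not called, and S100a8, Cxcr2 and Ly6g had too few reads to be tested.

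**Figure D5:**
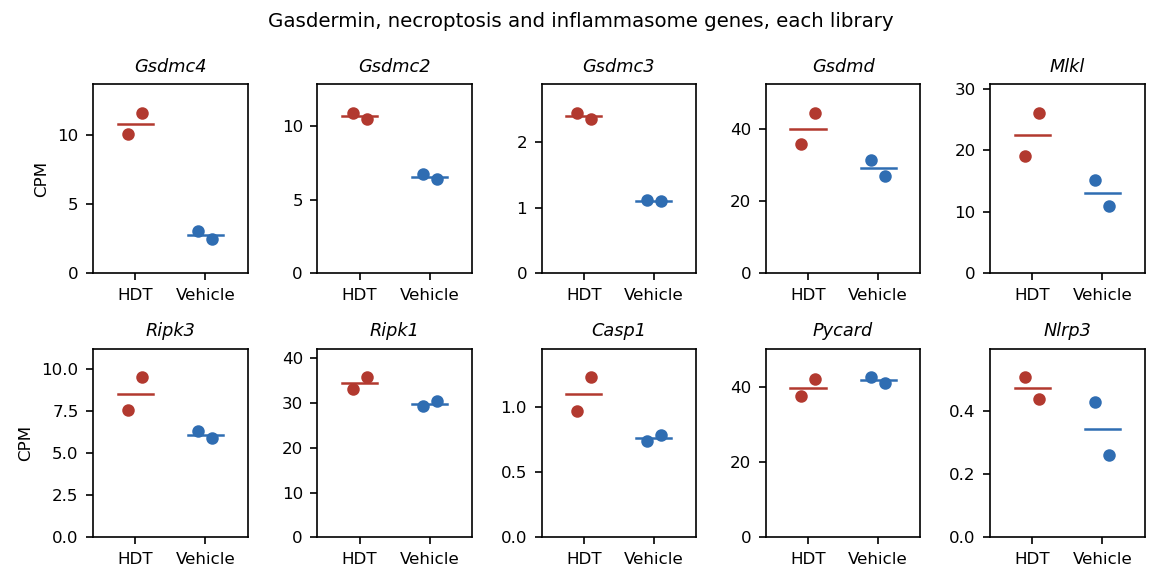
CPM of gasdermin, necroptosis and inflammasome genes in each of the 2 HDT and 2 Vehicle libraries, with a line at each group mean and every axis from 0. The 3 gasdermin C genes are separated by group with little spread, while Mlkl and Gsdmd vary more between mice of a group.

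Levels differed widely among the 48 genes, as the plot of length-scaled levels shows. Per kb of exon Perp led with 94.3 CPM in HDT and 112 CPM in Vehicle, followed in HDT by Bak1 at 49.1, Mcl1 at 41.5, Tnfrsf1a at 35.3 and Casp6 at 27.6, which were at 41.1, 38.8, 34.1 and 35.9 in Vehicle. The median member was at 4.45 in HDT and 3.19 in Vehicle. The lowest was Nlrp3 at 0.116 in HDT and Eda2r at 0.0658 in Vehicle. Per length, Bak1 exceeded Bax in both groups, with Bax at 17.8 in HDT and 14.5 in Vehicle. Bmf was at 1.37 in HDT and 2.52 in Vehicle, among the lower levels of the BCL2 family.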

How the data were processed

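Whole-tissue RNA of 2 HDT and 2 Vehicle mice was sequenced. The submitters' processing notes name edgeR, Subread 2.0.0 with featureCounts, STAR 2.7.1a, and the builds mm10 and GRCm38. The deposited values are described as normalized gene counts. For strand setting, annotation, the method of normalization and the order of these steps, the sources used here give nothing. The deposited values are a signal, since the authors' gene counts were multiplied by 1 factor per library (1.1128 to 1.1381 per read). Division by that factor returned whole reads in 100% of the values above 0, within 0.01. The members and lists were chosen with earlier results of these data known.

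Genes kept by filterByExpr (edgeR 4.0.16) were tested with limma 3.58.1 (trend, robust, two-sided) on log2(value + 1) after scaling to TMM effective library sizes (factors 1.219, 1.183, 0.848 and 0.818 for HDT 1 and 2 and Vehicle 1 and 2). Fold changes are on the log2(value + pseudocount) scale and so understate those of low genes, where the pseudocount equals 0.892 reads. p-values were adjusted by Benjamini-Hochberg over 18285 genes, at a threshold of 0.05. The median prior degrees of freedom were 5.87. The fit was tested on simulated data, where the share of false calls among all calls exceeded the threshold. Far fewer genes were changed there than were called here, so that share does not carry over to these data. Calls near the threshold are less certain. Alternatives were other scalings, filters, pseudocounts, moderation, the count tests edgeR and DESeq2 1.42.0 on recovered reads, a replicate block and leaving out each library.

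Levels are CPM, with length from merged exons of GENCODE M21 (GRCm38). Without a stated strand setting, reads of the 11 members whose exons overlap another gene cannot be assigned with certainty. Names matched the members in 48 of 48 cases, and Gsdme was read from the row Dfna5, its synonym in RefSeq. The 26 rows whose symbols had turned into dates were not used as named genes. Any member may be named; of each further list the 2 called genes with the largest change and untested genes are named, of each marker list the first gene and genes at 0, and any other gene was chosen after its values were seen. Some genes of the further lists are not reported here.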

Additional observations from a re-analysis of the deposited data

How the results depend on the processing

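At the deposited scaling, members higher numbered 41 and lower 1, against 17 and 8 as reported, because that scaling moved the median log2 fold change of all genes to 0.526. The sign turned there for Bcl2l1 (0.425), Bok (0.114), Bad (0.33), Bcl2l11 (0.286), Pmaip1 (0.281), Casp6 (0.152), Casp9 (0.267), Casp12 (0.242), Diablo (0.191), Fas (0.32), Cflar (0.444), Pycard (0.458), Perp (0.276), Plk2 (0.503), Bnip3l (0.164) and Tnfaip3 (0.206). Of these, Bok, Casp6, Casp12, Bnip3l and Tnfaip3 had no call at that scaling, and the others were called higher there. limma without trend and robust moderation called 8 members higher and 4 lower, and the cause was not tested. Without single libraries, 9 to 15 members were higher and 5 to 8 lower, with fewer samples in each fit. The sign also turned without a library, always without a call, for Bid (−0.034 to 0.133), Xiap (−0.019 to 0.052), Tnfrsf1a (−0.038 to 0.151), Casp4 (−0.058 to 0.694), Pycard (−0.14 to 0.013) and Plk2 (−0.095 to 0.062). edgeR's quasi-likelihood test on recovered reads made the same calls for the 48 members, and DESeq2 called 13 higher and 6 lower. Other scalings, filters and pseudocounts gave 13 to 18 higher and 6 to 9 lower members. The difference of replicate 1 from replicate 2 in HDT had a correlation of −0.142 with that in Vehicle over 18285 genes. This 1 value cannot show whether same-numbered or other mice shared a batch. With the replicate block, 8 members were higher and 6 lower; with the pairing crossed, chosen after seeing the data, 20 were higher and 11 lower. Depth limits Nlrp3, Eda2r, Casp1 and Casp4 most.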

Other observations

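Several further genes of the same pathways, named after their values were seen, moved or varied widely. Ninj1, which ruptures the plasma membrane late in lytic death, was at 36.9 and 39.3 CPM in HDT, against 54.9 and 54.7 CPM in Vehicle (log2 fold change −0.52, limma adjusted p = 0.000532). Nlrc4, an inflammasome scaffold, was at 41.3 and 44.5 CPM in HDT, against 31.2 and 31.9 CPM in Vehicle (log2 fold change 0.44, limma adjusted p = 0.00165). The cytokine gene Il1b was at 0.97 and 0.89 CPM in HDT, against 2.47 and 1.6 CPM in Vehicle (log2 fold change −1.08, limma adjusted p = 0.0131). Both HDT libraries were above both Vehicle libraries for Nlrc4 and below them for Ninj1 and Il1b. Zbp1, a nucleic acid sensor upstream of RIPK3, was at 18.5 and 36.1 CPM in HDT, against 11.1 and 5.14 CPM in Vehicle, and its log2 fold change of 1.77 was not called (limma adjusted p = 0.166). Its highest and lowest libraries were those of Mlkl and Ripk3. Gsdma2, another gasdermin gene, was at 1319 and 1464 CPM in HDT, against 1555 and 1371 CPM in Vehicle, with overlapping groups (limma adjusted p = 0.578).

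Among the further p53 targets, Sesn2, a stress-induced regulator of mTORC1, was at 13.5 and 10.8 CPM in HDT, against 8.21 and 7.81 CPM in Vehicle (log2 fold change 0.59, limma adjusted p = 0.00763). Its relative Sesn1 was at 8.94 and 7.85 CPM in HDT, against 10.1 and 12.3 CPM in Vehicle (log2 fold change −0.41, limma adjusted p = 0.0379). Rrm2b, a ribonucleotide reductase subunit, was at 10.7 and 10.8 CPM in HDT, against 17.4 and 20.0 CPM in Vehicle (log2 fold change −0.80, limma adjusted p = 0.000481). In each of these 3 genes the groups did not overlap.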
